A study of Mus musculus with 9 samples.

Results

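The genes of the renin-angiotensin and endothelin systems were examined in heart RNA of control, diabetic and spermine-treated diabetic mice. The genes were taken by symbol from the matrix of counts and were Agt, Ace, Agtr1a and Agtrap of the angiotensin system, and Edn1, Ece1, Ednra and Ednrb of the endothelin system. Of these 8 genes 7 are described, out of 22851 genes in all, and Ednra is not analysed here. The labels put 3 libraries in each of 3 groups of C57BL/6 mice. CK mice received citrate buffer, DCM (diabetic cardiomyopathy model) mice received a single injection of streptozotocin at 180 mg/kg, which destroys the insulin-producing cells of the pancreas, and SPM mice received the same injection and the polyamine spermine. Spermine was given at 1 mg/kg daily over the 2 weeks that preceded streptozotocin, and on alternate days during the 12 weeks that followed. By the methods of the study the mice were males of 6 to 8 weeks when they entered the experiment, and hearts were taken after 12 weeks. The model is a chemical one, and spermine was started before the injury in every SPM mouse, so effects on the onset of diabetes and effects on the diabetic heart cannot be told apart.

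The renin-angiotensin system turns angiotensinogen, the product of Agt, into angiotensin I by renin and then into angiotensin II by angiotensin-converting enzyme, the product of Ace. Angiotensin II acts on the AT1 receptor, whose main form in the mouse heart is encoded by Agtr1a, and is known for raising blood pressure and driving growth of heart muscle and scar tissue. Endothelin-1, made from the Edn1 precursor by endothelin-converting enzyme (Ece1), is a strong constrictor of vessels and acts on the receptors encoded by Ednra and Ednrb.

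Total counts on genes lay between 29901300 and 39718680 per library, and the mitochondrial share was 13.7% to 16.2% (CK), 15.5% to 18.9% (DCM) and 21.0% to 21.1% (SPM). The extraction protocol deposited with the libraries speaks of retinas, whereas the tissue label names the heart. Cardiomyocyte markers summed to 38190 to 50860 normalized CPM (CPM, counts scaled to a common library total after TMM normalization) and retina markers to 0.422 to 1.44 CPM over the 9 libraries. The methods of the study state in one place 3 mice per group and in another 18 hearts mixed in sets of 6, so that the p-values below measure the spread between these libraries, which may not be that between single mice. SPM replicate 2 lay between SPM replicates 1 and 3 for 69.0% of 11990 genes, and 45.0% of replicate 1 mixed with replicate 3 matched it to within counting noise (squared deviation 0.882 of that noise in the median gene, against at least 2.69 for the 251 other combinations of libraries). Of 2656 genes without a count in SPM replicates 1 and 3, 30 had a count in replicate 2. Its independence is therefore in doubt, and the fold changes of the 7 genes in comparisons with SPM are given with and without it. A fit that leaves out SPM replicate 1 or 3 still holds replicate 2, so its SPM libraries may not be independent. Groups were compared with the quasi-likelihood test of edgeR, and a gene was called at a Benjamini-Hochberg adjusted p below 0.05, over all genes tested, and a fold change of at least 1.5.

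In the diabetic heart the precursor gene Agt was 2.01-fold higher than in control heart and was called. The receptor gene Agtr1a was 1.40-fold higher, which passed the test but not the fold limit. Both were called higher in SPM than in CK. Edn1 did not pass the test in DCM compared to CK and was called 1.79-fold higher in SPM than in DCM. With libraries left out 1 at a time that call was kept only without SPM replicate 3. The log2 fold changes in these fits stayed between 0.59 and 0.99. Ace was lower in SPM than in CK by the adjusted p but short of the fold limit, and did not pass without SPM replicate 2. In the main edgeR fits with all libraries Agtrap and Ednrb passed the test in none of the 3 comparisons. RNA of whole tissue was measured, so fewer cells of a type and less RNA per cell cannot be told apart in any of these differences.

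**Figure D1:**
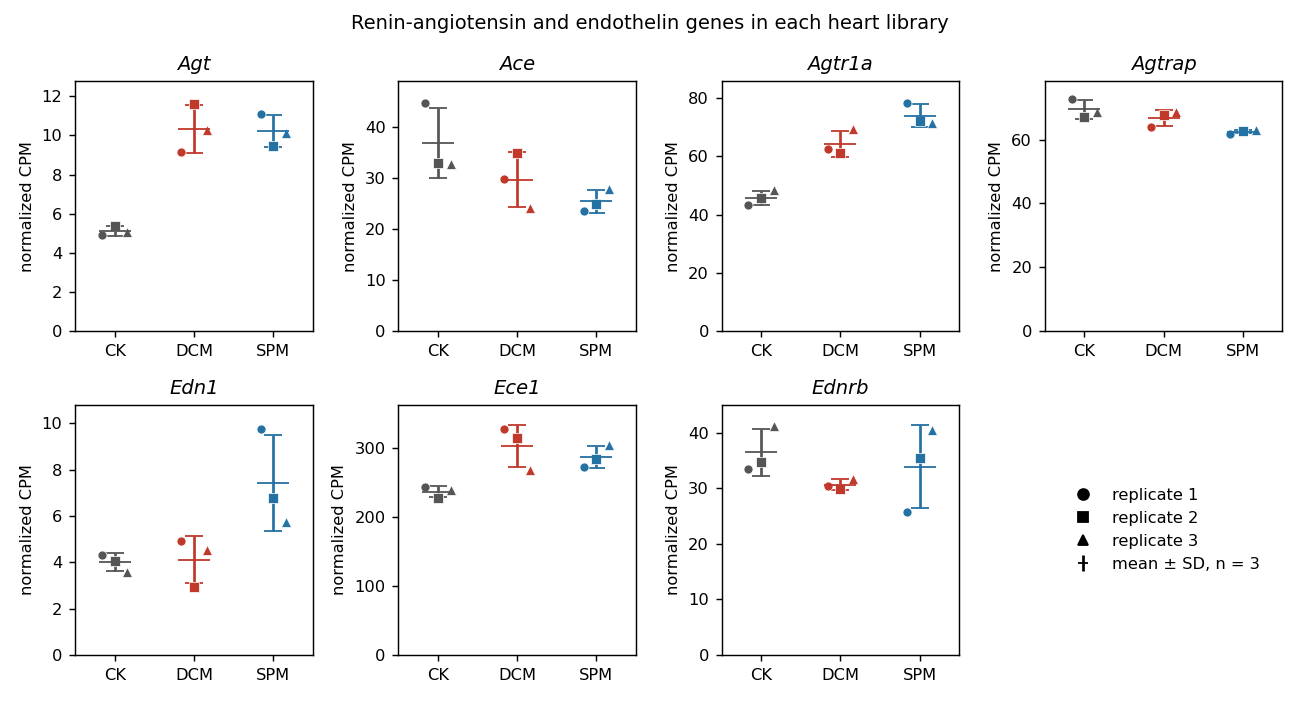
Normalized CPM (vertical axes, from 0, a scale for each gene) of the 7 genes in the 3 libraries of CK, DCM and SPM, with circles, squares and triangles for replicates 1, 2 and 3 and bars for the mean ± SD (n = 3). Agt was 2.01-fold higher in DCM than in CK with no overlap of libraries, Agtr1a stood higher in DCM and SPM than in CK, and Edn1 was highest in the SPM libraries, which also spread most.

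Agt (ENSMUSG00000031980, GRCm38 chromosome 8 from 124556534 to 124569706, minus strand) encodes the only known precursor of the angiotensins. The 250 bases before its start and those before the start of Edn1 are shown because these are the ligand genes of both systems and the members with the largest fold changes. Both sequences are from RefSeq (GRCm38.p6) and read 5′ to 3′ along the gene's strand, with the letters of a searched motif in capitals.
Agt, chr8:124569707-124569956, minus strand: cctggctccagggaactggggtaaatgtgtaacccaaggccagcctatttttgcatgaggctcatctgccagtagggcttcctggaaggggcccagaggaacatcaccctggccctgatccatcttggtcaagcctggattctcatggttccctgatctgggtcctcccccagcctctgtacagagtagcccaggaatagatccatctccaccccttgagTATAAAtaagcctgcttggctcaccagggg
Edn1, chr13:42301226-42301475, plus strand: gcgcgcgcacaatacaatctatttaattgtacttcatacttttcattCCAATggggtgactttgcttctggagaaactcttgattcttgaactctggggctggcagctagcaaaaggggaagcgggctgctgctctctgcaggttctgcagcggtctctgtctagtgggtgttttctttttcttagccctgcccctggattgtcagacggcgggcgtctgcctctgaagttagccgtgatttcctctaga
Motifs were searched on both strands and were chosen with the sequences in view. Of 32851 mouse promoters of the same length 12.4% held the TATA box TATAAA, 33.9% held the CCAAT box CCAAT, 4.46% held the AP-1 site TGAGTCA and 16.6% held the hypoxia response core ACGTG. In Agt the capitals mark TATAAA, 30 to 25 bases before the start, and in Edn1 they mark CCAAT, 203 to 199 bases before it. The AP-1 site and the hypoxia response core were not found in either of these windows. Bases after the annotated starts or further before them were not searched, so elements outside the windows are not covered.

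The 3 CK libraries held 154, 193 and 157 counts of Agt, the DCM libraries 364, 343 and 350, and the SPM libraries 361, 294 and 311. Every DCM and SPM library was above every CK library, while the DCM and SPM libraries overlapped. Normalized CPM of Agt was 5.13 ± 0.239 in CK, 10.3 ± 1.24 in DCM and 10.2 ± 0.833 in SPM (SD, n = 3 libraries per group). The log2 fold change was 1.01 in DCM compared to CK (standard error 0.14, adjusted p = 8.68e-04, edgeR quasi-likelihood test). It was 0.99 in SPM compared to CK (standard error 0.12, edgeR adjusted p = 0.00126) and 1.05 without SPM replicate 2 (edgeR adjusted p = 0.00807). Agt kept its call in DCM compared to CK without any 1 of the 6 libraries, with log2 fold changes between 0.92 and 1.10. Between SPM and DCM its log2 fold change was -0.013 (95% interval -0.28 to 0.25, edgeR adjusted p = 0.953).

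Agt is also among the major products of liver, and liver markers stood apart in some libraries. The sum of the 11 liver markers ranged from 21.3 to 94.3 normalized CPM over the CK libraries and from 36.0 to 44.2 over the DCM libraries, and was 426.6, 217.6 and 44.0 in SPM replicates 1, 2 and 3. Alb, which encodes serum albumin, had 75, 1010 and 33 counts in CK, 14, 9 and 9 in DCM, and 8041, 3517 and 9 in SPM. The liver markers did not move as one, since Ahsg, which encodes the plasma protein fetuin-A, had 9.75, 11.5 and 12.6 normalized CPM in the CK libraries, 30.02, 28.4 and 26.1 in the DCM libraries, and 41.6, 34.1 and 29.5 in the SPM libraries. For Ahsg, as for Agt, every DCM and SPM library was above every CK library. This held for no other of the 11 liver markers. Over the 6 liver markers tested in DCM compared to CK the median log2 fold change was -0.98, with 1 called higher and 1 lower. The part of liver RNA in the difference of Agt was not tested.

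Ace (ENSMUSG00000020681, chromosome 11 from 105967945 to 105989964, plus strand) encodes the enzyme of endothelial surfaces that makes angiotensin II and also breaks down bradykinin. Its counts were 1402, 1179 and 1012 in CK, 1185, 1032 and 825 in DCM, and 762, 775 and 856 in SPM. In normalized CPM these were 44.7, 32.9 and 32.8 in CK, 29.8, 34.9 and 24.2 in DCM, and 23.5, 24.9 and 27.9 in SPM. The SPM libraries were all below the CK libraries, and the DCM libraries overlapped with both groups. Ace fell by 0.54 on the log2 scale in SPM compared to CK (standard error 0.13, edgeR adjusted p = 0.0155), short of the fold limit. Ace fell by 0.38 on the log2 scale without CK replicate 1, the highest library, and the adjusted p was 0.0623 without SPM replicate 2 (edgeR). It passed both limits without CK replicate 2 or 3 or SPM replicate 3 (edgeR adjusted p = 0.0273, 0.0228 and 0.0129) and with limma on FPKM plus 0.1 (adjusted p = 0.0143). The log2 fold change was -0.31 in DCM compared to CK (95% interval -0.62 to -0.0037, edgeR adjusted p = 0.197) and -0.22 in SPM compared to DCM (95% interval -0.50 to 0.056, edgeR adjusted p = 0.236). The antisense gene Gm11651 overlaps Ace and had 0 to 3 counts per library. Without a stated strand setting these counts do not bound the antisense reads within Ace, and their part in its counts was not tested.

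Agtr1a (ENSMUSG00000049115, chromosome 13 from 30336441 to 30382867, plus strand) encodes the type 1a angiotensin II receptor, which signals through Gq proteins. Its normalized CPM was 43.4, 45.8 and 48.3 in the CK libraries, 62.6, 61.1 and 69.4 in the DCM libraries, and 78.5, 72.1 and 71.5 in the SPM libraries, from 1362 to 2551 counts per library. The 3 groups did not overlap, with CK lowest and SPM highest. Agtr1a rose by a log2 fold change of 0.49 in DCM compared to CK (standard error 0.079, edgeR adjusted p = 0.00205), which is below the fold limit, and the adjusted p was at most 0.0134 without any 1 library. It was called in SPM compared to CK, at a log2 fold change of 0.69 (standard error 0.069, edgeR adjusted p = 7.87e-04), and 0.71 without SPM replicate 2 (edgeR adjusted p = 0.00558). The step from DCM to SPM, 0.20 on the log2 scale, did not pass the test (95% interval 0.038 to 0.37, edgeR adjusted p = 0.0840). Fibroblast markers, of which 6 were measured, summed to 1968 to 2062 normalized CPM in the CK libraries, 1333 to 1423 in the DCM libraries and 1588 to 1649 in the SPM libraries. The sum was lowest in DCM, but its members differed in order: across CK, DCM and SPM, Col1a1 had 222.4 to 235.3, 105.8 to 114.6 and 74.2 to 122.3 CPM, and Pdgfra had 80.2 to 83.6, 78.8 to 88.6 and 95.7 to 99.7 CPM. Markers of smooth muscle and pericytes summed to 996.2 to 1287 CPM over the 9 libraries. The part of these cells in the difference of Agtr1a was not tested.

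Agtrap (ENSMUSG00000029007, chromosome 4 from 148077061 to 148088031, minus strand) encodes a membrane protein that binds the AT1 receptor and promotes its internalization. Its normalized CPM was 72.7, 67.0 and 68.7 in CK, 63.9, 67.7 and 68.7 in DCM, and 61.9, 62.6 and 63.0 in SPM, so the SPM libraries were the lowest of the 9 and differed little among themselves. The log2 fold change in DCM compared to CK was -0.056 (95% interval -0.21 to 0.097, edgeR adjusted p = 0.688). It was -0.096 in SPM compared to DCM (edgeR adjusted p = 0.311) and -0.16 in SPM compared to CK (95% interval -0.29 to -0.027, edgeR adjusted p = 0.0722), and none of these passed the test. In SPM compared to CK the adjusted p was below 0.05 in 2 of 17 alternative fits. The log2 fold changes over these fits lay between -0.25 and -0.047.

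Edn1 (ENSMUSG00000021367, chromosome 13 from 42301476 to 42307990, plus strand) encodes the precursor of endothelin-1, a peptide made chiefly by endothelium. Its counts were 136, 146 and 110 in CK, 195, 87 and 154 in DCM, and 317, 211 and 176 in SPM. Normalized CPM was 4.34, 4.07 and 3.57 in CK, 4.90, 2.95 and 4.51 in DCM, and 9.76, 6.79 and 5.73 in SPM. All SPM libraries were above all others, CK and DCM overlapped, and SPM replicate 1 stood well above the other SPM libraries.

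The log2 fold change of Edn1 was 0.051 in DCM compared to CK (95% interval -0.42 to 0.53, edgeR adjusted p = 0.922). It was 0.84 in SPM compared to DCM (standard error 0.23, edgeR adjusted p = 0.0364), and Edn1 was called. The call was lost without DCM replicate 1, 2 or 3 and without SPM replicate 1 or 2, where the edgeR adjusted p was 0.0700, 0.127, 0.0781, 0.0784 and 0.0872 in that order, and was kept without SPM replicate 3 (edgeR adjusted p = 0.0110). Its log2 fold changes in these fits lay between 0.59 and 0.99. The fits without SPM replicate 1 or 3 keep SPM replicate 2, whose independence is in doubt. With a correction for GC content the log2 fold change was 0.75 and the adjusted p 0.0931 (edgeR). Against CK the log2 fold change of SPM was 0.89 (standard error 0.21, edgeR adjusted p = 0.0152), with an adjusted p of 0.0441 without SPM replicate 2 and 0.0519 without CK replicate 3. Both comparisons with SPM use the same SPM libraries and are not independent.

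**Figure D2:**
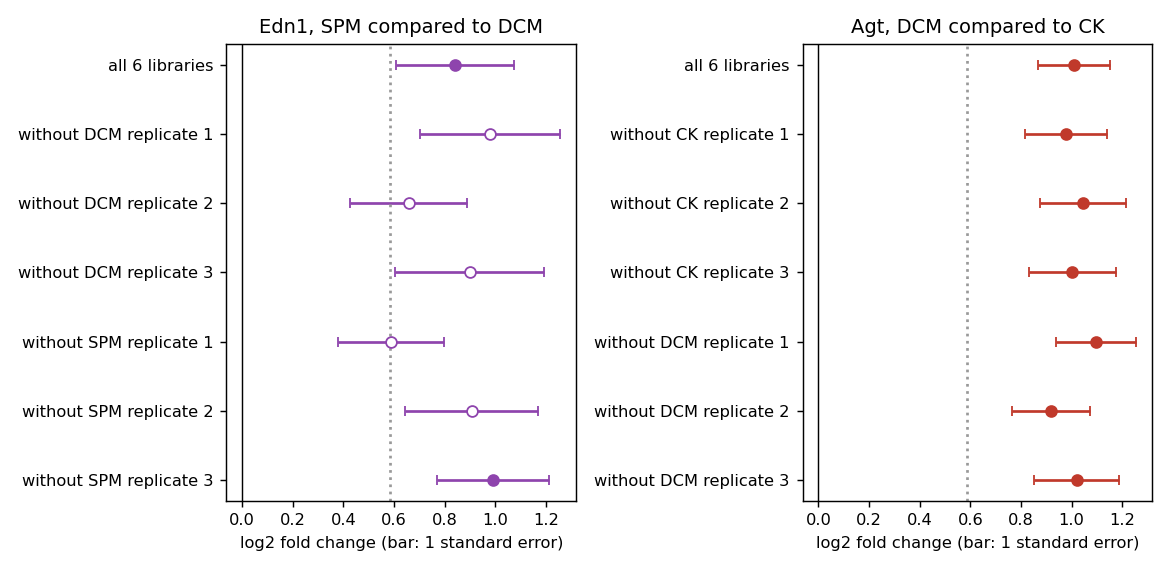
Log2 fold changes (horizontal axes, bars of 1 standard error) of Edn1 in SPM compared to DCM and of Agt in DCM compared to CK, with all 6 libraries and with each left out in turn. Filled points passed both limits, open points did not, and the dotted line is a fold change of 1.5. Agt stayed between 0.92 and 1.10 and was called throughout, whereas Edn1 was called in 1 of the 6 reduced fits.

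Edn1 was highest in SPM replicate 1 and lowest in replicate 3. The sums of the markers of liver, macrophages, fat cells and smooth muscle had the same order. The sums of endothelial, fibroblast, cardiomyocyte, atrial and mast cell markers had the reverse order. For endothelium these were 2716, 2870 and 3001 normalized CPM in SPM replicates 1, 2 and 3. The middle place of replicate 2 goes with its likeness to a mixture of the others. The 7 macrophage markers summed to 1146, 848.5 and 659.9 normalized CPM in SPM replicates 1, 2 and 3. Their sums were 547.6 to 659.4 over the DCM libraries and 685.6 to 915.1 over the CK libraries. Between SPM and DCM 5 of 7 macrophage markers and 5 of 6 tested liver markers were called higher by edgeR, where 3.59% of all genes were called in either direction. Without SPM replicate 2 edgeR called 0 of 7 (5 at an unadjusted p below 0.05) and 1 of 6 (Alb). In that fit 0.378% of all genes were called, and 22% had an unadjusted p below 0.05. The 12 endothelial markers, all of which had at least 1 CPM in every library, summed to 2716 to 3001 CPM over the SPM libraries, 2908 to 3256 over the DCM libraries and 2877 to 3279 over the CK libraries, with the 3 groups overlapping. In SPM compared to DCM, Cldn5, which encodes claudin-5 of endothelial junctions, was called lower with and without SPM replicate 2, and Tie1 was lower by the adjusted p alone, with all libraries. The SPM libraries held 37.6 to 54.4 CPM of Cldn5, the DCM libraries 89.96 to 126.2 and the CK libraries 94.7 to 134.3. The part of macrophage, liver and endothelial RNA in the difference of Edn1 was not tested.

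**Figure D3:**
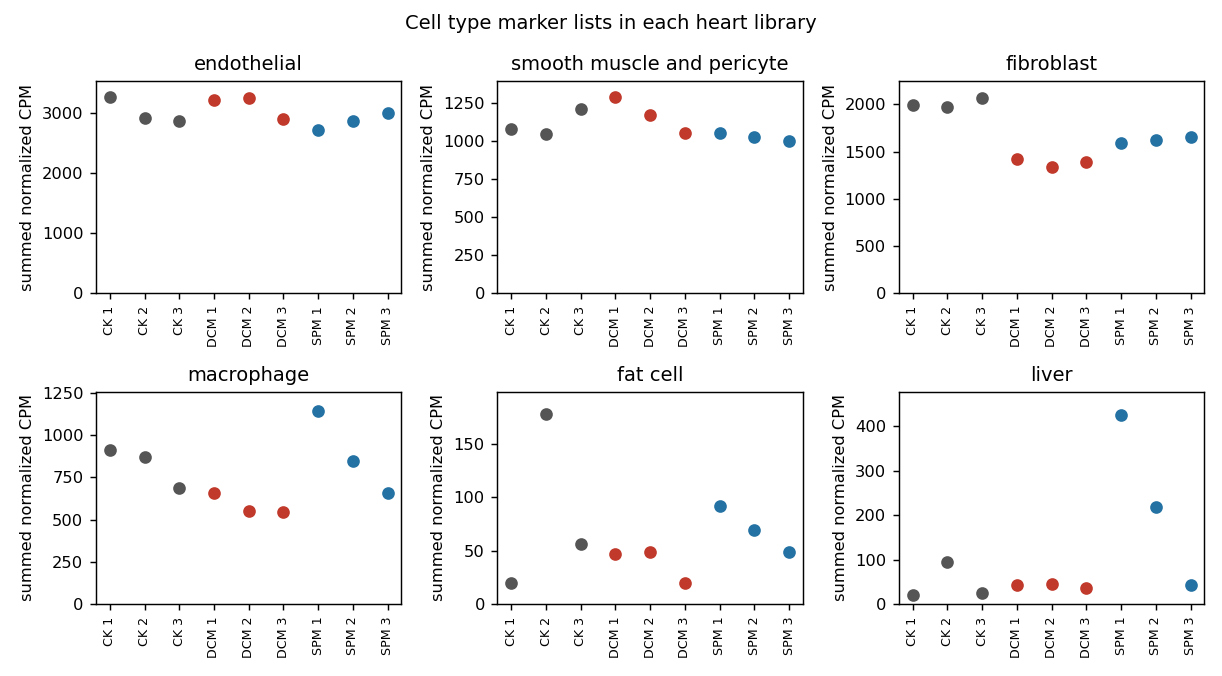
Summed normalized CPM (vertical axes, from 0) of 6 lists of cell type markers in each of the 9 libraries, in grey for CK, red for DCM and blue for SPM. The endothelial sums overlap between the groups at 2716 to 3279, summed fibroblast markers are lowest in DCM at 1333 to 1423, and the macrophage and liver sums are highest in SPM replicate 1 at 1146 and 426.6.

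Ece1 (ENSMUSG00000057530, chromosome 4 from 137862237 to 137965229, plus strand) encodes the endothelin-converting enzyme, a membrane protease that releases the active peptide. It had the most counts of the 7 genes, with 7642, 8160 and 7346 counts in CK, 12993, 9255 and 9150 in DCM, and 8840, 8834 and 9342 in SPM. Normalized CPM was 236.5 ± 8.15 in CK, 302.6 ± 30.6 in DCM and 286.7 ± 16.1 in SPM (SD, n = 3 libraries), and all DCM and SPM libraries were above all CK libraries. The rise in DCM compared to CK was 0.36 on the log2 scale (standard error 0.083, edgeR adjusted p = 0.0170), below the fold limit. It lost the test without CK replicate 2, DCM replicate 1 or DCM replicate 2 (edgeR adjusted p = 0.0826, 0.0618 and 0.0605) and in limma on FPKM (adjusted p = 0.0754). Against CK the log2 fold change of SPM was 0.27 (edgeR adjusted p = 0.0125), with an adjusted p of 0.0623 without SPM replicate 2, and against DCM it was -0.079 (95% interval -0.27 to 0.11, edgeR adjusted p = 0.549).

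Ednrb (ENSMUSG00000022122, chromosome 14 from 103814625 to 103844402, minus strand) encodes the endothelin B receptor, which on endothelium clears endothelin and releases nitric oxide. Its normalized CPM was 33.5, 34.8 and 41.3 in CK, 30.5, 29.8 and 31.8 in DCM, and 25.8, 35.4 and 40.5 in SPM. The DCM libraries lay just below the CK libraries, while the SPM libraries held both the lowest of all 9 values and the second highest. The log2 fold change was -0.25 in DCM compared to CK (95% interval -0.45 to -0.048, edgeR adjusted p = 0.114), 0.14 in SPM compared to DCM (adjusted p = 0.487) and -0.11 in SPM compared to CK (adjusted p = 0.617). Without SPM replicate 1, the lowest library, it was 0.30 in SPM compared to DCM (edgeR adjusted p = 0.0442), which passed the test but not the fold limit, and 0.053 in SPM compared to CK, the opposite direction. Both of these fits keep SPM replicate 2, whose independence is in doubt.

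**Figure D4:**
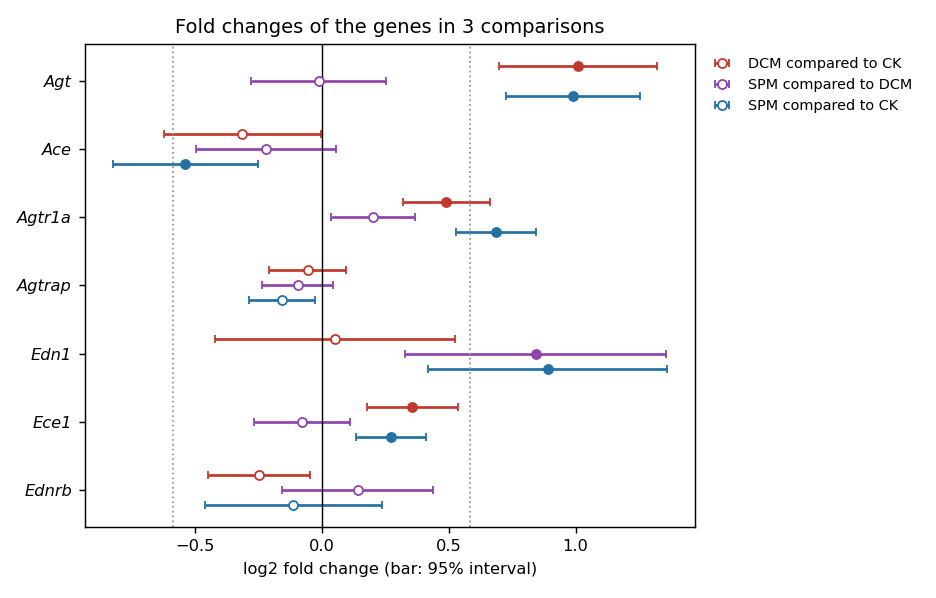
Log2 fold changes (horizontal axis) of the 7 genes in the 3 comparisons, with 95% intervals from the edgeR fits. Filled points have an adjusted p below 0.05, and the dotted lines are fold changes of 1.5. Agt, near 1 in both comparisons with CK, and Agtr1a lie to the right of 0, Ace lies to the left, and the intervals of Edn1 are the widest.

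Of the 7 genes 1 was called in DCM compared to CK (Agt), where 4.34% of 14402 genes tested were called. The comparison of SPM with DCM called 1 (Edn1), where 3.59% of 14493 genes were called. Without SPM replicate 2 edgeR called 0 of the 7 there, where 0.378% of 14828 genes were called, also 0 with the adjusted p alone (0.486% of all genes), and 2 had an unadjusted p below 0.05 (22% of all genes). The comparison of SPM with CK called 3 (Agt, Agtr1a and Edn1), where 9.21% of 14574 genes were, and without SPM replicate 2 also 3, where 5.18% were. With the adjusted p alone the numbers were 3, 1 and 5 of 7, against 10.4%, 16.6% and 27.4% of all genes, and without SPM replicate 2 it was 3 of 7 in SPM compared to CK, against 10.4% of all genes. The groups did not overlap for 4, 3 and 6 of the 7 genes, and for 29.3%, 39.2% and 46.3% of all genes tested. The median log2 fold change of the 7 genes was 0.051, -0.013 and 0.27 in the 3 comparisons, where that of all genes was -0.0025, 0.0057 and 0.0022. Without SPM replicate 2 the log2 fold changes in SPM compared to DCM were 0.042 for Agt, -0.21 for Ace, 0.22 for Agtr1a, -0.096 for Agtrap, 0.91 for Edn1, -0.070 for Ece1 and 0.11 for Ednrb. Those in SPM compared to CK were -0.52 for Ace, -0.16 for Agtrap, 0.95 for Edn1, 0.28 for Ece1 and -0.14 for Ednrb, beside the values of Agt and Agtr1a given above. With 7 genes these counts describe the genes and are too small for a statement on the 2 systems as a whole.

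Per length of transcript, as FPKM, the order of the levels in CK was Ece1 (51.3 ± 1.63), Agtr1a (21.8 ± 0.984), Agtrap (18.2 ± 0.794), Ednrb (9.28 ± 0.955), Ace (7.84 ± 1.49), Agt (2.83 ± 0.148) and Edn1 (1.95 ± 0.209; SD, n = 3 libraries). Ednrb and Ace overlapped, and the other neighbours did not. In DCM the order was the same, with Ace at 5.93 ± 1.05 and Agt at 5.36 ± 0.548 FPKM as the neighbours that overlapped. In SPM the mean of Agt (5.27 ± 0.414 FPKM) was above that of Ace (5.05 ± 0.456), again with overlap. The ligand genes were thus the least abundant of the set in CK, and Edn1 was the lowest in every group.

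Among 12608 genes with a mean of at least 1 CPM, those whose log2 CPM followed each gene most closely over the 9 libraries were listed as a description. They were Camk2a and Popdc2 for Agt (Pearson r = 0.987 and 0.984), Hsdl2 and Tfdp2 for Agtr1a (both 0.989), Fez2 and Tmed9 for Ace (both 0.978), and Prmt2 and Dpp9 for Agtrap (0.974 and 0.971). Vwf, the gene of von Willebrand factor of endothelium, and Sema4b were nearest to Ece1 (0.984 and 0.966). For Edn1 they were Pisd-ps1 and H2-Q10 (both 0.977), and for Ednrb Sesn3 and Ppp2r2a (0.975 and 0.969). The 9 points share their groups, their depth and, in SPM, the doubtful library, and these genes were picked for being the nearest of so many.

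The other genes of the pathways were a list of 38, of which 30 could be tested. The 13 genes of angiotensin processing, the 6 other angiotensin receptors and partners, the 5 other endothelin ligands and proteases and the 14 genes of Gq coupling gave 12, 3, 1 and 14 tested genes. In DCM compared to CK 1 of the 30 passed both limits, in SPM compared to DCM 1 and in SPM compared to CK 4, and all of these were lower. The shares of all genes tested that passed both limits were 4.34%, 3.59% and 9.21%. With the adjusted p alone 1 was higher and 3 lower in DCM compared to CK, 4 higher and 5 lower in SPM compared to DCM, and 5 higher and 9 lower in SPM compared to CK, beside 10.4%, 16.6% and 27.4% of all genes. Without SPM replicate 2, SPM compared to DCM had 0 by the adjusted p of edgeR, beside 0.486% of all genes. An unadjusted p below 0.05 was reached by 10 of the 30, beside 22% of all genes. In SPM compared to CK without that library 1 was higher and 4 lower by the adjusted p, beside 10.4%. Past both limits were 0 higher and 4 lower (Enpep, Prcp, Rgs4 and Thop1), beside 5.18% of all genes. The median log2 fold changes over the 30 genes were -0.040, -0.076 and -0.091, and without SPM replicate 2 the latter pair were -0.073 and -0.081.

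The gene that passed in DCM compared to CK was Rgs4, which encodes a protein that shortens Gq and Gi signals of receptors. It had 26.5, 24.0 and 27.0 normalized CPM in CK, 16.4, 14.3 and 17.9 in DCM, and 14.3, 14.2 and 16.5 in SPM, with every CK library above every other. Its log2 fold change was -0.67 in DCM compared to CK (standard error 0.10) and -0.79 in SPM compared to CK (standard error 0.089), and it kept both calls without any 1 library (largest edgeR adjusted p = 0.00807 and 0.00913).

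Of the 12 tested genes of angiotensin processing, 1 was higher (Ctsd) and 2 lower (Enpep and Prcp) in DCM compared to CK by the adjusted p alone. The share of all genes was 10.4%. In SPM compared to DCM 1 was higher (Lnpep) and 1 lower (Thop1), beside 16.6% of all genes. Without SPM replicate 2 there were 0 of either, beside 0.486%. In SPM compared to CK 2 were higher (Atp6ap2 and Lnpep) and 4 lower (Enpep, Prcp, Prep and Thop1), beside 27.4%. Without SPM replicate 2 the latter were 1 (Lnpep) and 3 (Enpep, Prcp and Thop1), beside 10.4% of all genes. The log2 fold changes in that fit were -0.59 for Enpep, -0.60 for Prcp and -0.66 for Thop1. Enpep, the aminopeptidase that acts on angiotensin II, had at least 18.3 normalized CPM in every CK library, 13.6 to 14.5 in the DCM libraries and 12.4 to 15.1 in the SPM libraries, with every CK library above every other. Its log2 fold change was -0.56 in DCM compared to CK, under the fold limit, and -0.59 in SPM compared to CK, where it was called. Prcp, a carboxypeptidase that also acts on angiotensin II, had 29.7 ± 3.78, 20.0 ± 2.89 and 20.0 ± 0.517 CPM in CK, DCM and SPM (SD, n = 3 libraries), with log2 fold changes of -0.57 and -0.58 in DCM and SPM compared to CK. Thop1, an oligopeptidase that makes angiotensin (1-7), had 27.6 ± 4.12, 25.7 ± 2.71 and 17.6 ± 0.786 CPM in these groups and was called in SPM compared to CK at a log2 fold change of -0.66.

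**Figure D5:**
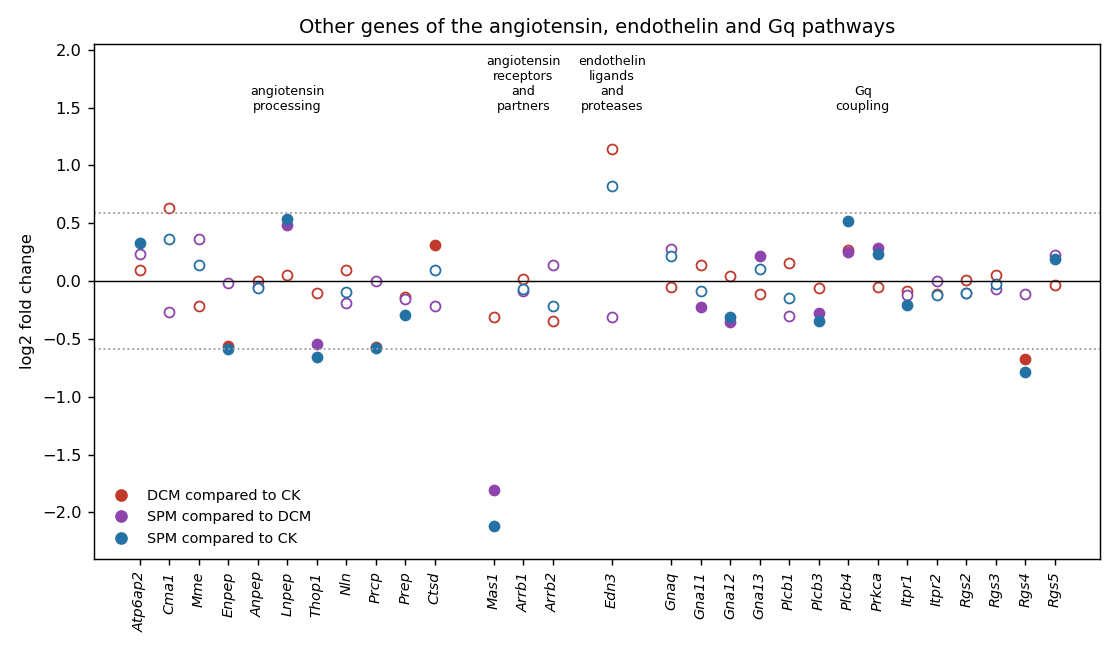
Log2 fold changes (vertical axis) of tested genes of the pathway list in the 3 comparisons, by role. Filled points have an adjusted p below 0.05 in edgeR, and dotted lines are fold changes of 1.5. Rgs4, Enpep, Thop1 and Mas1 lie below the lower line in SPM compared to CK, Rgs4 alone does so in filled points of DCM compared to CK, and the points of Mas1 lie furthest down on counts of 2 to 27 per library.

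Mas1, the receptor of angiotensin (1-7), had 27, 23 and 19 counts in CK, 17, 19 and 22 in DCM and 2, 5 and 8 in SPM. It was called lower in SPM compared to DCM (log2 fold change -1.81, edgeR adjusted p = 0.0471) and in SPM compared to CK (-2.12), and lost both calls without SPM replicate 2 (edgeR adjusted p = 0.187 and 0.0924). Of the other libraries, only SPM replicate 3 could be left out with the call against DCM kept (edgeR adjusted p = 0.0430), and the call against CK was also lost without CK replicate 1 or SPM replicate 1 (edgeR adjusted p = 0.0593 and 0.0507). The antisense gene Airn overlaps Mas1 and had 406 to 1034 counts, and without a stated strand setting reads of both genes cannot be told apart. Renin (Ren1) had 0, 0 and 14 counts in CK, 38, 8 and 0 in DCM and 5, 8 and 6 in SPM, and was not tested. Agtr1b had 4, 0 and 1 counts in CK and 0 in the 6 other libraries. A count of 0 still allows an expected count of up to 3 at 95% confidence. Agtr2 had 2 counts in 1 SPM library and 0 elsewhere. Chymase (Cma1), a mast cell protease that also makes angiotensin II, had 42, 55 and 54 counts in CK, 120, 72 and 58 in DCM and 57, 60 and 70 in SPM, with a log2 fold change of 0.63 in DCM compared to CK (95% interval -0.0082 to 1.27). Edn3, which encodes endothelin-3, had 31, 22 and 18 counts in CK, 82, 35 and 53 in DCM and 38, 42 and 42 in SPM, and its log2 fold change of 1.14 in DCM compared to CK did not pass the test (edgeR adjusted p = 0.0860).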

How the data were processed

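RNA of 9 heart libraries was sequenced on the HiSeq platform after TruSeq preparation, and groups were taken from the deposited titles. The authors deposited whole-number counts per gene, for reads cleaned by fastp 0.18.0, and FPKM values, which the counts give back when scaled by the library total and a fixed gene length (largest relative deviation 6.8e-13). The submitters' processing notes name Bowtie 0.12.2, mm8 and mm9 without a role, and for the counting tool, annotation and strand setting the sources used here give nothing. Doses and times are from the study's methods.

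Symbols and positions are from GENCODE M21 on GRCm38, which gave a symbol to 22844 of 22851 identifiers (7 had none). Pairs of groups were fitted with their own 6 libraries by edgeR 4.0.16 in R 4.3.3 (filterByExpr, TMM with factors of 0.967 to 1.05, glmQLFit, glmQLFTest), with Benjamini-Hochberg adjustment over all genes tested. Calls needed an adjusted p below 0.05 together with a fold of at least 1.5. The standard error is the log2 fold change divided by the square root of F, and 95% intervals use the t distribution with the degrees of freedom of edgeR. Totals of 29901300 to 39718680 counts set the precision, and counting error alone is larger for Edn1 (87 to 317 counts) than for Ece1 (7346 to 12993).

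The members, the pathway list and the marker lists were chosen with earlier results of these data known. All members were named. Of the pathway list, genes called in any comparison and Ren1, Agtr1b, Agtr2 and Cma1 were named by rule, and Prcp, Prep, Ctsd, Lnpep, Atp6ap2 and Edn3 were added after their values were seen, as were the single markers. A gene of the list is counted but not reported here. For likeness, the 2 genes with the highest Pearson r on log2 of CPM plus 0.1 were taken.

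Alternatives were no fold limit or one of 1.3, DESeq2 1.42.0, RLE normalization, a joint fit of the 9 libraries, a low-count filter of 1 CPM in 3 libraries or none, a replicate block, an offset for GC content (lowess span 0.3) with and without that block, limma 3.58.1 on log2 of FPKM plus 0.1 or 1, mitochondrial genes left out, and each library left out in turn. Only the main edgeR fits, and none of the alternatives, were tested on simulated counts. These were drawn independently for each library, so the doubt about SPM replicate 2 was not covered. Figures used Python 3.11.15 and matplotlib 3.10.9.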

Additional observations from a re-analysis of the deposited data

How the results depend on the processing

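Of 399 fold changes of the 7 genes under 19 alternatives, 361 kept their direction and their side of the limits, 11 lost and 10 gained a call, and 17 changed sign, none of the latter among the 5 fold changes called of 21. The genes called in DCM compared to CK numbered 1 (1 to 1 with each library left out), or 3 without a fold limit and 2 at a fold of 1.3. In SPM compared to DCM they numbered 1 (0 to 1 with each library left out), or 0 with the GC offset and 0 with limma on FPKM plus 0.1 or plus 1. In SPM compared to CK they numbered 3 (3 to 4 with each library left out), or 5 without a fold limit, 4 at a fold of 1.3, and 4 and 1 with limma on FPKM plus 0.1 and plus 1. The pathway genes called in DCM compared to CK numbered 1 (1 to 3 with each library left out), or 4 without a fold limit, 3 at a fold of 1.3, 2 in one fit of all 9 libraries, and 3 and 2 with limma on FPKM plus 0.1 and plus 1. In SPM compared to DCM they numbered 1 (0 to 1 with each library left out), or 9 without a fold limit, 3 at a fold of 1.3, and 0 with DESeq2, without the low-count filter, with at least 1 CPM in 3 libraries, with the GC offset with or without the block, and with limma on FPKM plus 1. In SPM compared to CK they numbered 4 (2 to 6 with each library left out), or 14 without a fold limit, 7 at a fold of 1.3 and 2 with at least 1 CPM in 3 libraries. A fold limit or filter changes these counts by construction, and for the other settings the cause was not tested.

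Sign changes were in fold changes that did not pass the test. In SPM compared to DCM the GC offset, without and with the replicate block, gave log2 fold changes of 0.16 and 0.16 for Agt, 0.014 and 0.015 for Agtrap, 0.071 and 0.072 for Ece1 and -0.023 and -0.045 for Ednrb. With each library left out Agt lay between -0.10 and 0.078 and Ednrb between -0.010 and 0.30 in that comparison, and Ednrb between -0.26 and 0.053 in SPM compared to CK. Edn1 in DCM compared to CK was -0.069 and -0.041 with limma on FPKM plus 0.1 and plus 1, and between -0.089 and 0.24 with each library left out.

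Libraries with the same replicate number did not deviate together (r = -0.0825 to 0.196 against -0.269 to 0.209 for other numbers, across 14909 genes). With the replicate block the numbers of genes called stayed at 1, 1 and 3, and those of the pathway genes at 1, 1 and 4. Among the 7 genes depth limits Edn1 most. Of the other pathway genes named it limits Agtr2, Agtr1b, Ren1 and Mas1 most, and 3 libraries per group limit all tests.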
